A study of Mus musculus with 4 samples.

Results

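Among the 55401 gene rows quantified in 8-week mouse hearts, 8 genes without an established function were examined, *1810014B01Rik*, *Gm14325*, *Gm20492*, *Gm17711*, *Gm17129*, *Gm29331*, *Gm47644* and *Gm43857*. They were selected on the measured values themselves, because the transcript levels of the wild-type and the heterozygous hearts were clearly apart, so their genotype differences are given as a description and carry no test. The annotation gives them 8 different types, namely a transcribed unprocessed pseudogene, a protein-coding gene, a processed transcript, a pseudogene, a processed pseudogene, an antisense gene, a sense intronic gene and a gene marked TEC, a class that the annotators keep for further experiments.

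Symbols that begin with Gm or end in Rik are placeholders for gene models predicted from sequence or from cDNA clones. Pseudogenes are copies of genes that have lost their coding capacity, either by duplication of a stretch of DNA (unprocessed) or by reverse transcription of an mRNA (processed), and some are transcribed. Antisense genes are read from the strand opposite to another gene, often a protein-coding one, and sense intronic genes lie within an intron of a gene on the same strand. CTCF is a zinc finger protein that binds DNA and, together with cohesin, holds chromatin loops and their boundaries.

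Hearts came from 4 mice aged 8 weeks on the C57BL/6N background, with 1 polyA RNA library per mouse. The 2 wild-type mice (*Ctcf*+/+) carried no edited allele, and the 2 heterozygous mice (*Ctcf*+/R567W) carried 1 allele with the R567W substitution in CTCF, made by CRISPR/Cas9 in the germ line and so present in all cells of the heart. The methods give the same housing for all mice and describe no drug treatment of these 4. Values are listed for wild-type heart 1, wild-type heart 2, heterozygous heart 1 and heterozygous heart 2, in that order throughout.

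Expression was given as TPM, a relative transcript abundance that corrects for transcript length and gives every library the same total. TPM keep no depth, so the depth of each library and the counting error of each value are unknown. *Ctcf* had 6.66, 7.59, 6.14 and 5.20 TPM (limma, adjusted p = 0.814), and TPM cannot show the substitution, so this does not check the genotype labels. *Xist* lay between 0.01 and 0.03 TPM and the Y-linked *Ddx3y* between 12.7 and 17.5 TPM in the 4 hearts. After scaling, all 8 cardiomyocyte markers were above 0 and summed to 24889, 23383, 20060 and 23971, and the 5 endothelial markers summed to 251, 249.9, 286 and 329. The 5 fibroblast markers summed to 40.5, 59.6, 32.6 and 39.2, and the 3 smooth muscle markers to 37.6, 31.2, 21.7 and 30.6. The genotypes did not overlap in the endothelial sums, which were higher in the heterozygous hearts. Nor did they in the fibroblast and smooth muscle sums, which were lower there. The 3 adipocyte markers (2.10, 0.881, 0.159 and 0.797) and the 3 markers of thymus or lymph node (8.86, 10.6, 4.87 and 7.13) did not overlap either. Of these markers, 0 of the adipocyte list and 1 of the thymus or lymph node list had a mean of at least 1 TPM. The summed cardiomyocyte, atrial, immune, erythroid, skeletal muscle and nervous tissue markers overlapped between genotypes. The part of these lists in the values below was not tested. In bulk tissue, fewer cells of a type and less RNA per cell cannot be told apart.

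The sequences show how closely some of the 8 genes resemble other genes, since a read that fits several genes has to be divided among them. Each transcript was aligned with all other annotated transcripts, and the 120-base coding or pseudogene stretch with the most differences from its longest match is shown for 3 genes, with the bases that differ in capitals. The first pair is *Gm14325* and *Gm14308*, a member of its zinc finger family elsewhere on chromosome 2, which matched over 1516 bases at 95.5% identity and differ at 19 positions here.
Gm14325: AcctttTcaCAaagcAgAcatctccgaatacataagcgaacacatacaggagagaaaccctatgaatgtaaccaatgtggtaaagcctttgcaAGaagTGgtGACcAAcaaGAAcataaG
Gm14308: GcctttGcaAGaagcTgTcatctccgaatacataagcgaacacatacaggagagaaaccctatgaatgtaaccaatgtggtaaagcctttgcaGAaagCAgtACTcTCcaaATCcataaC
Between the clustered differences lies an identical run that encodes the linker between neighbouring zinc fingers. The second pair is *Gm17129* and *Gm3275*, which matched over 486 bases at 99.4% identity and differ at 2 positions.
Gm17129: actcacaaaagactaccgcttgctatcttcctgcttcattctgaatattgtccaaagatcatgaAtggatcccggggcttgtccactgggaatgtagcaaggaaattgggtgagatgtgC
Gm3275: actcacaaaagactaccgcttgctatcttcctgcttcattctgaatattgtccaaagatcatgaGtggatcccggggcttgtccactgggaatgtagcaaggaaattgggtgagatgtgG
The third pair is *1810014B01Rik* and the gene *1190007I07Rik*, which matched over 621 bases at 96.0% identity and differ at 4 positions here.
1810014B01Rik: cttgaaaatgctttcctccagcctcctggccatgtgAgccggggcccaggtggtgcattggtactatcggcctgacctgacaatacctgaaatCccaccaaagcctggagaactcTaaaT
1190007I07Rik: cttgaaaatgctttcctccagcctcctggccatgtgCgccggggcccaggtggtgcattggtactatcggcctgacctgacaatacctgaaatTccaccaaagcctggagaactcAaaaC

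*Gm17711* is a different case, since it is annotated on the opposite strand of the last exon of *Abracl*, with 2 exons that are separated by 1 base. Below, 29 bases of the *Gm17711* transcript across this gap are set beside the 30 bases of the *Abracl* exon read on the strand of *Gm17711*, with the extra base in capitals.
Gm17711: attccataaacaactttttcatggcagct
Abracl (strand of Gm17711): attccataaacaacAtttttcatggcagct
*Gm20492*, by contrast, shared no run of 50 bases with any other transcript, on either strand. Its whole transcript of 286 bases is shown, with the 10 bases on each side of its exon junction in capitals.
Gm20492: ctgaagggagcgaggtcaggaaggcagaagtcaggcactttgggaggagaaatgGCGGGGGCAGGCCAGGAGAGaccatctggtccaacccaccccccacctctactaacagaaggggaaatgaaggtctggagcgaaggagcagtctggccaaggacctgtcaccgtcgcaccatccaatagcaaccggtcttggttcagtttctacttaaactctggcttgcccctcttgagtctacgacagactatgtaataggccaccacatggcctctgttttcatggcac

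Of the 8 genes, 5 were higher and 3 lower in the heterozygous hearts. In all 8 the genotypes did not overlap, both in TPM as deposited and after scaling of the libraries, which is what they were selected for. Over the 10036 genes with a mean of at least 1 TPM, both heterozygous hearts lay above both wild-type hearts in 23.7% and under them in 23.3% after scaling, so a lack of overlap alone was common with 2 hearts in each genotype. With TPM as deposited these shares were 2.32% and 67.8%. The median absolute difference of the 8 genes was 1.61 on the log2(scaled TPM + 1) scale, on which all log2 differences below are given as heterozygous minus wild-type, and between 0% and 0.996% of the tested genes had a larger absolute difference than each of them. All 8 passed the filter on low values, but *1810014B01Rik* and *Gm14325* did so only through the wild-type hearts and *Gm20492* and *Gm17711* only through the heterozygous hearts. The limma model called 2 genes in the whole table, 0.0199% of those tested, and neither is one of the 8.

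**Figure D1:**
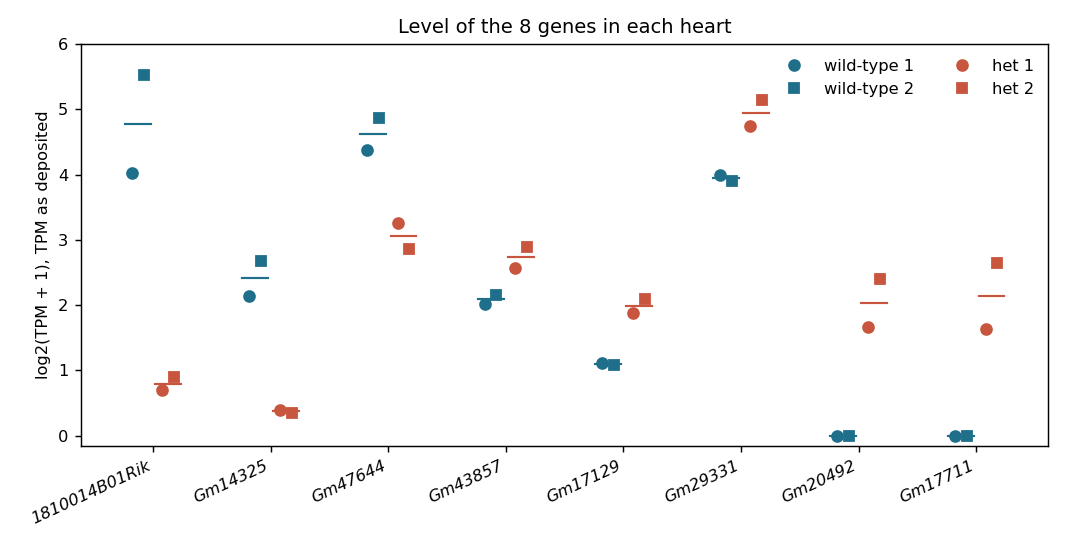
Level of each of the 8 genes in each heart, as log2(TPM + 1) of the deposited TPM; circles and squares are hearts 1 and 2 of each genotype, blue wild-type and red heterozygous, and lines are the genotype means. The 3 genes on the left were higher in the wild-type hearts and the 5 on the right in the heterozygous hearts, and *Gm20492* and *Gm17711* were listed at 0 in both wild-type hearts.

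*1810014B01Rik* (chr10:86685525-86694806, plus strand, mm10) is a transcribed unprocessed pseudogene with 6 annotated transcripts. Its level was 15.3 and 44.9 TPM in wild-type mice, against 0.62 and 0.86 TPM in heterozygotes. Both wild-type hearts were far above both heterozygous hearts, and the wild-type hearts also differed 2.94-fold from each other. The genotype means were 24.9 ± 15.3 and 0.855 ± 0.137 scaled TPM (SD, n = 2 each), a log2 difference of -3.67. This was the largest absolute difference of all tested genes at the pseudocount of 1, but with a pseudocount of 0.1 it was -4.57, beside 5.32 for *Gm17711* and 5.19 for *Gm20492*. The lowest wild-type heart was still 14.8-fold above the highest heterozygous heart after scaling.

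*Gm14325* (chr2:177831791-177840336, minus strand) is annotated as protein-coding and belongs to a cluster of zinc finger genes on distal chromosome 2. It had 3.42, 5.42, 0.32 and 0.27 TPM. The 2 hearts of each genotype lay close together, and the genotypes were separated by a gap of 8.03-fold in scaled TPM. The means were 3.72 ± 0.819 in wild-type and 0.345 ± 0.0654 in heterozygous hearts (scaled TPM, SD, n = 2 each), a log2 difference of -1.80.

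*Gm47644* (chr10:53337753-53345085, minus strand) is a sense intronic gene that lies within *Cep85l*, which encodes a centrosomal protein. It had 19.7, 28.1, 8.57 and 6.23 TPM, the highest level in heterozygous hearts among the 3 genes that were lower there. Its means were 20.2 ± 2.97 and 8.69 ± 2.54 scaled TPM (SD, n = 2 each), a log2 difference of -1.15. The gap between the nearest hearts of different genotype was 2.30-fold in deposited TPM and 1.73-fold after scaling, where replicate hearts differed by 1.43-fold and 1.38-fold in deposited TPM.

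*Gm20492* (chr10:127288514-127289681, plus strand) is a processed transcript of 2 exons. It was listed at 0 in both wild-type hearts and had 2.17 and 4.29 TPM in the heterozygous hearts. *Gm17711* (chr10:18011268-18011505, plus strand), annotated as a pseudogene of 237 exon bases, was listed at 0 in both wild-type hearts as well and had 2.11 and 5.28 TPM in the heterozygous hearts. For both, heterozygous heart 2 was higher than heart 1, by 1.98-fold and 2.50-fold in TPM. No fold between genotypes is given against a value listed at 0. Among the tested genes, 6 were listed at 0 in both wild-type hearts, and these 2 genes were the only ones of them that were above 0 in both heterozygous hearts. In the other direction, 16 tested genes were listed at 0 in both heterozygous hearts, of which 2 were above 0 in both wild-type hearts.

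*Gm17129* (chr14:3978426-3978930, minus strand) is a processed pseudogene of 505 bases without introns. It had 1.17, 1.12, 2.68 and 3.29 TPM. Replicate hearts differed by 1.04-fold in wild-type and 1.23-fold in heterozygous mice in deposited TPM. The means were 0.982 ± 0.132 and 3.46 ± 0.257 scaled TPM (SD, n = 2 each), a log2 difference of 1.17.

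*Gm29331* (chr15:98589990-98591090, plus strand) is an antisense gene of 2 exons opposite *Adcy6*. It had 15.01, 13.99, 25.8 and 34.3 TPM and was the most abundant of the 8 genes by its mean over the 4 hearts. Both heterozygous hearts were above both wild-type hearts, by at least 2.29-fold after scaling and 1.72-fold in deposited TPM. The log2 difference was 1.41.

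*Gm43857* (chr3:152391162-152394240, minus strand) is a single-exon gene of the TEC type that reaches into the last exons of *Usp33*. It had 3.04, 3.47, 4.94 and 6.43 TPM. The genotypes did not overlap, with means of 2.77 ± 0.0284 and 6.58 ± 0.761 scaled TPM (SD, n = 2 each) and a log2 difference of 1.002. In deposited TPM the gap between the nearest hearts was 1.42-fold, the narrowest of the 8.

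**Figure D2:**
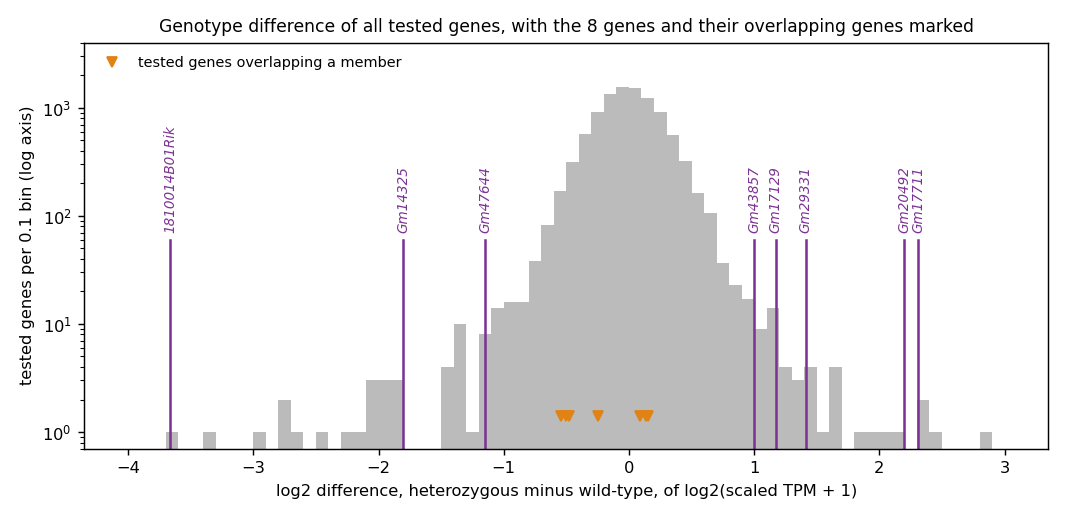
Distribution of the log2 difference between genotypes (heterozygous minus wild-type, log2(scaled TPM + 1)) over the 10036 tested genes, with the number of genes per bin on a log axis; purple lines are the 8 genes and orange triangles the 7 tested genes that overlap them. The 8 genes lie at absolute differences of 1.002 and above, and the overlapping genes between -0.54 and 0.15.

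Something that the selection did not use is the position of these genes against others. Exons of 5 of the 8 genes overlapped exons of a gene on the opposite strand, compared with 32.6% of all tested genes and 32.8% of the 573 tested genes with a Gm or Rik symbol. The 5 opposite genes were *Hsp90b1*, *Pln*, *Abracl*, *Adcy6* and *Usp33*, all protein-coding. *Gm17711* and *Gm29331* lay with 100% of their exon bases (237 and 605) within exons of *Abracl* and *Adcy6*, at the 3′ ends of these mRNAs. *Gm47644* shared 60.7% of its exon bases (1644) with *Pln*, *Gm43857* 48.0% (1478) with *Usp33*, and *1810014B01Rik* 15.6% (415) with *Hsp90b1*. *Gm20492* overlapped the span of *Mbd6* at its 5′ end with its first exon and part of its intron, and the 2 genes shared no exon base. Whether the libraries or the counting kept the strand of the reads is not given in the sources used here, and without strand the reads of such a gene and of its opposite gene cannot be told apart over the shared bases.

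**Figure D3:**
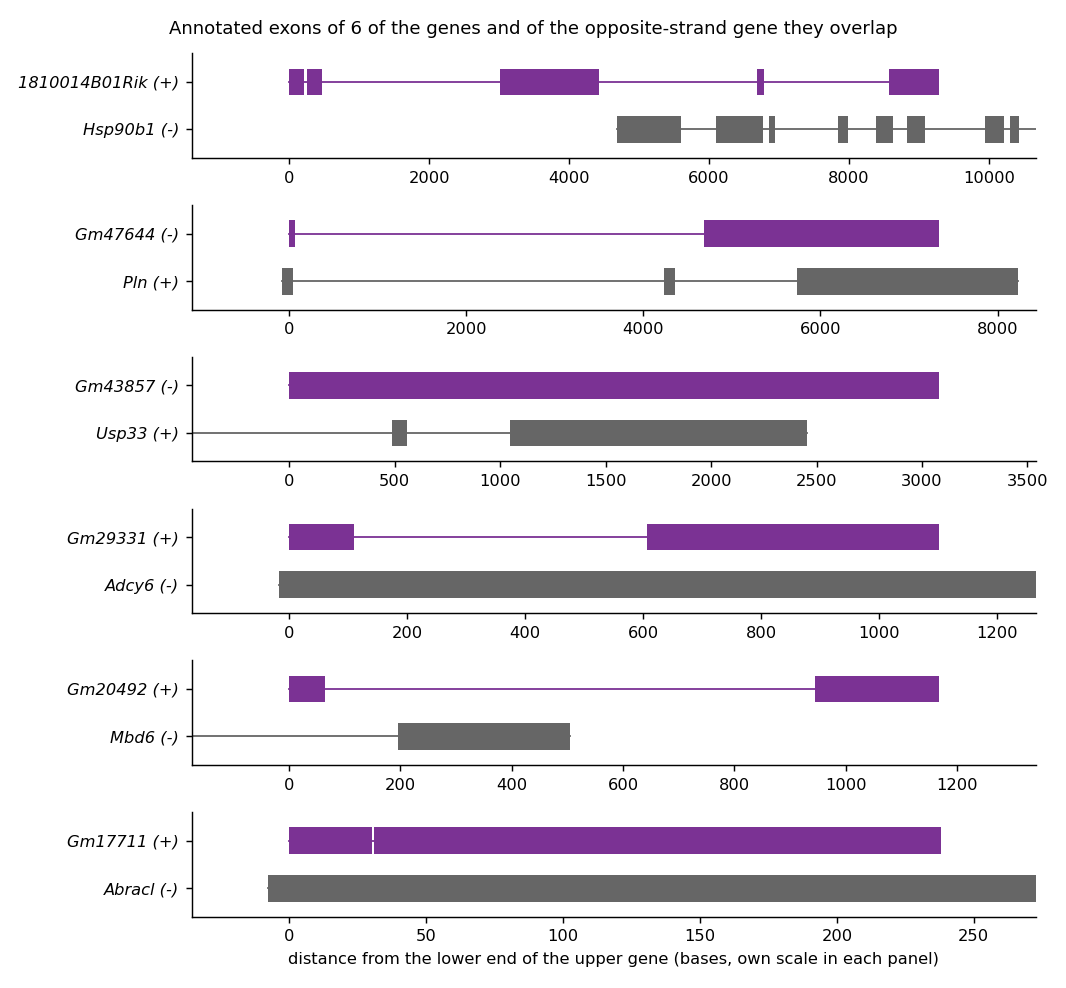
Annotated exons (boxes) and introns (lines) of 6 of the genes in purple and of the opposite-strand gene in grey, along the distance in bases from the lower end of the purple gene, with the strand in brackets and each panel on its own scale; grey genes run past the panel where they are longer. *Gm29331* and *Gm17711* lie wholly within an exon of the grey gene, whereas the exons of *Gm20492* and *Mbd6* do not meet.

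The opposite genes were not selected themselves and were tested with limma. They were reached through selected genes and can share reads with them, so their p-values may not be free of the selection. *Pln*, which encodes phospholamban, the inhibitor of the calcium pump of the sarcoplasmic reticulum, had 461, 528, 216 and 314 TPM. Its scaled means were 422 ± 3.23 and 306 ± 59.0 (SD, n = 2 each), with no overlap between genotypes, a log2 difference of -0.48 and an adjusted p of 0.420. *Gm47644* made up 4.10%, 5.06%, 3.82% and 1.95% of the sum of both genes, and the log2 difference of the sum was -0.50. The share of *Gm47644* was lowest in heterozygous heart 2.

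*Hsp90b1*, a chaperone of the endoplasmic reticulum, had 29.8, 40.4, 17.0 and 18.5 TPM, with a log2 difference of -0.50 (limma, adjusted p = 0.351). Like *1810014B01Rik*, it did not overlap between genotypes and was lower in the heterozygous hearts. Of the sum of the pair, *1810014B01Rik* made up 33.9% and 52.7% in wild-type mice but 3.52% and 4.44% in heterozygotes, and the log2 difference of the sum was -1.26.

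*Abracl*, which encodes a small protein linked to actin dynamics, had 8.52, 16.8, 4.47 and 7.45 TPM, with overlapping genotypes after scaling, a log2 difference of -0.54 and an adjusted p of 0.457. *Gm17711* held 0%, 0%, 32.1% and 41.5% of the sum of the pair. The summed level of both genes was 8.52, 16.8, 6.58 and 12.7 TPM, and its log2 difference was 0.06.

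*Adcy6*, one of the main adenylyl cyclases of cardiomyocytes, had 54.1, 69.4, 59.0 and 41.4 TPM, with overlapping genotypes and a log2 difference of 0.13 (limma, adjusted p = 0.839), which was -0.30 with TPM as deposited. *Gm29331* was 21.7% and 16.8% of the sum in wild-type mice but 30.5% and 45.3% in heterozygotes, and the log2 difference of the sum was 0.52. *Usp33*, a deubiquitinating enzyme, had 14.3, 11.2, 8.26 and 7.12 TPM (log2 difference -0.25, adjusted p = 0.650 with limma). The share of *Gm43857* in the sum with *Usp33* was 17.5%, 23.7%, 37.4% and 47.5%, and the log2 difference of the sum was 0.18. These shares and sums include genes that were selected for their genotype gap, so they are a description of the pairs and no test of them. They are also formed from TPM, which are corrected for transcript length, so they are not shares or sums of reads.

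**Figure D4:**
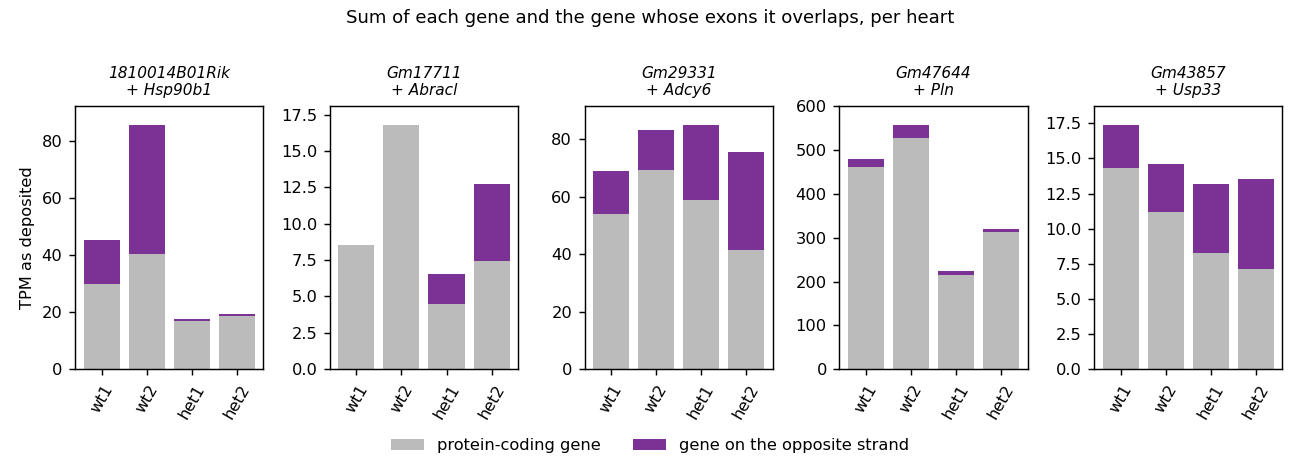
Deposited TPM in each heart of the protein-coding gene (grey) and, stacked on it, the gene on its opposite strand (purple), for the 5 pairs with shared exon bases; wt and het are the wild-type and heterozygous hearts 1 and 2, and each panel has its own axis from 0. In the *Abracl* pair the purple part is absent in both wild-type hearts and 2.11 and 5.28 TPM in the heterozygous hearts.

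The other 2 overlapping genes were *Mbd6*, which encodes a protein of the methyl-CpG-binding domain family, and *Cep85l*. *Mbd6* had 20.6, 17.4, 12.7 and 17.2 TPM and a log2 difference of 0.09 (limma, adjusted p = 0.880). *Cep85l* had 1.46, 2.16, 1.6 and 1.49 TPM and a log2 difference of 0.15 (limma, adjusted p = 0.685). Both differences were negative with TPM as deposited.

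Together with the nearest tested gene on each side, 23 tested genes overlapped or neighboured the 8 genes. None was called by limma (0 of 23, with 4 at an unadjusted p under 0.05, compared with 1224 of all tested genes), and the smallest adjusted p was 0.318. Both heterozygous hearts were above both wild-type hearts in 5 of the 23 (21.7%) and under them in 4 (17.4%), close to the shares of all tested genes. The smallest adjusted p belonged to *Gm3164*, at higher coordinates than *Gm17129* on chromosome 14, which had 0.65, 0.36, 1.06 and 2.44 TPM (log2 difference 1.02). *Gm2897*, on the other side of *Gm17129*, had 2.07, 2.0, 2.16 and 3.03 TPM (log2 difference 0.54, adjusted p = 0.335 with limma). Both neighbours of *Gm17129* were thus higher in the heterozygous hearts after scaling, as *Gm17129* was, at distances of 436518 and 901586 bases. The neighbours of *Gm14325*, *Gm14403* and *Gm14326*, had log2 differences of -0.48 and -0.25 (limma, adjusted p = 0.413 and 0.524), and their genotypes did not overlap. *Gm14326* matched *Gm14325* at 97.1% identity over 1512 bases on the same strand, so it is also counted among its near copies below. The 12 other nearest genes lay between 1093 and 897570 bases away, with log2 differences from -0.10 to 0.38 and adjusted p from 0.372 to 0.962. *Ddit3*, the stress-response transcription factor CHOP, was the nearest of them, beside *Gm20492*, with 19.3, 21.2, 14.5 and 17.3 TPM and overlapping genotypes after scaling.

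Near copies, meaning genes with a transcript at least 95% identical over at least 200 bases on the same strand, were found for 3 of the 8 genes. *Gm14325* had 30, of which 12 were tested. Zinc finger genes of this kind encode DNA-binding proteins with arrays of repeated fingers. All copies of *Gm14325* together summed to 91.1, 41.9, 26.9 and 22.4 TPM, and 88.2% of the bases of its longest transcript lay in runs of 50 bases shared with other genes. Of the 12 tested copies, 10 had a negative log2 difference, and the adjusted p lay between 0.412 and 0.910 (limma). The genotypes did not overlap in 4, all lower in the heterozygous hearts. Among all tested genes, 23.3% had a gap in this direction. *Gm11007* and *Gm2007*, both counted among the 10, had identical values in every heart and are not separate observations. The median log2 difference of the 12 was -0.27, beside -0.0047 for all tested genes. The copies can share reads with *Gm14325*, so their values may not be free of the selection either.

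The copies differed between hearts of 1 genotype as well. *Gm14399* had 40.7 TPM in wild-type heart 1 but 1.22 in wild-type heart 2, and 0.45 and 0.13 in the heterozygous hearts. *Gm11007* and *Gm2007* had 5.81 TPM each in wild-type heart 1 and were listed at 0 in the other 3 hearts. *Gm14308*, the copy printed above, had 1.28, 2.99, 1.51 and 1.2 TPM, and *Zfp970*, the most abundant tested copy apart from *Gm14399* in 1 heart, had 18.1, 13.3, 10.4 and 8.10. The log2 difference of *Gm14399* was -2.71 (limma, adjusted p = 0.414), larger in size than the -1.80 of *Gm14325*, and rested mostly on wild-type heart 1. Between the nearest hearts of different genotype, no tested copy had as wide a gap as *Gm14325*, which was selected for its gap.

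*1810014B01Rik* had 3 near copies. *1190007I07Rik* had 9.43, 9.49, 3.36 and 6.23 TPM (log2 difference -0.52, adjusted p = 0.413 with limma) and did not overlap between genotypes. *Pwp1*, which encodes a WD-repeat protein of ribosome biogenesis, had 1.99, 2.30, 1.14 and 1.49 TPM (log2 difference -0.17, adjusted p = 0.622 with limma). The pseudogene *Gm19624* had 14.8 TPM in wild-type heart 2 and was listed at 0 in the other 3 hearts, and wild-type heart 2 was also the heart with the highest *1810014B01Rik*. The copies and *1810014B01Rik* together had 26.7, 71.5, 5.12 and 8.58 TPM, of which *1810014B01Rik* was 57.3%, 62.9%, 12.1% and 10.02%. *Gm17129* had 4 near copies, *Gm3275*, *Gm3084*, *Gm26570* and *Gm26817*, and all 4 were listed at 0 in all hearts, so that *Gm17129* held the whole of the group's TPM, although 96.0% of its bases lay in runs shared with 33 genes on the same strand.

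**Figure D5:**
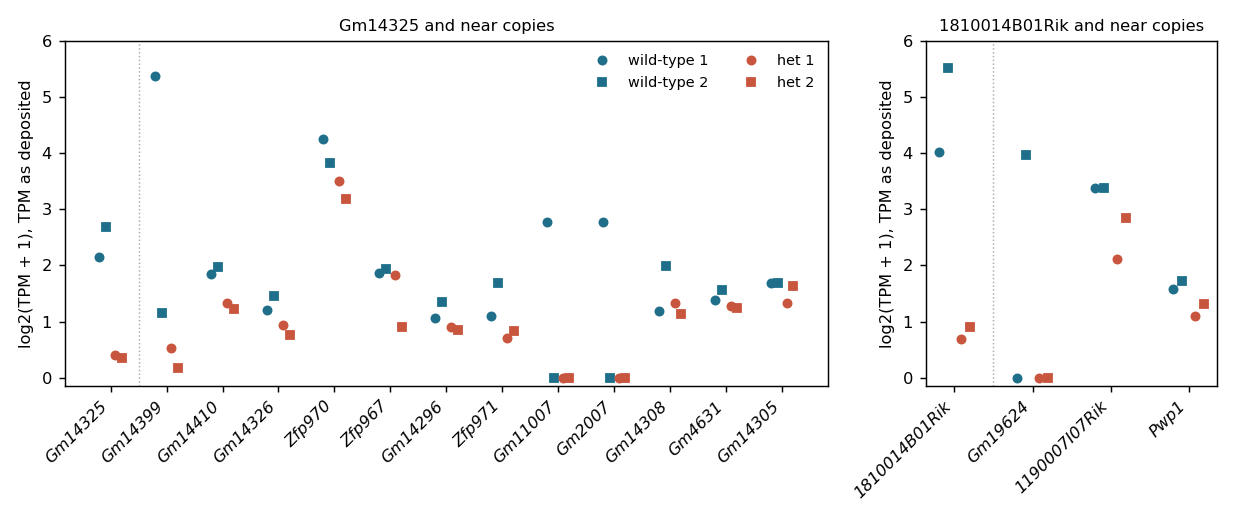
Level in each heart, as log2(TPM + 1) of the deposited TPM, of *Gm14325* (left) and *1810014B01Rik* (right) and, right of the dotted line, of their tested near copies in order of sequence identity; circles and squares are hearts 1 and 2, blue wild-type and red heterozygous. *Gm14399*, *Gm11007* and *Gm2007* were high in wild-type heart 1 and *Gm19624* in wild-type heart 2.

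The gene with the most similar pattern was found for each of the 8, among the other tested genes, as the one with the smallest root mean square distance over the 4 libraries, after centring of the log2 values of each gene. *Gm43857* lay closest to another gene, *Dtnb*, which encodes a dystrobrevin (distance 0.0412, with 1.01, 1.21, 2.35 and 2.97 TPM for *Dtnb*). *Gm17129* was nearest to *Gm10925* (0.0596), an unprocessed pseudogene that was far more abundant, with 10571, 12440, 16936 and 21108 TPM. *Gm29331* was nearest to the lincRNA *Gm45733* (0.0967, with 0.97, 0.64, 2.05 and 3.18 TPM). *Gm47644* was nearest to *Gm9821* (0.144). *Gm17711* and *Gm20492* shared the nearest gene, the unprocessed pseudogene *Gm29216* (0.241 and 0.354), which was far more abundant. *Gm14325* was nearest to *B4gat1*, a glycosyltransferase gene that had 3.04, 5.26, 0.24 and 0.89 TPM (0.305). *1810014B01Rik* was farthest from any other gene, with *Gm8186* at 0.603. These matches use the same values that the 8 genes were selected on. A similar genotype gap in the nearest gene thus comes with the selection and is no separate result. Whether any match reflects a relation between the genes was not tested.

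The noncoding RNAs of known name were a point of comparison. Of the list, 34 rows were tested, and none was called by limma (0 of 34, with 2 at an unadjusted p under 0.05). The median log2 difference was 0.06 (-0.34 in deposited TPM, beside -0.35 over the whole set of tested genes), and the genotypes did not overlap in 12 rows, 8 with the heterozygous hearts higher (23.5%) and 4 with them lower (11.8%). *Neat1*, which builds nuclear paraspeckles, was the most abundant, with 1496, 1150, 715 and 906 TPM and overlapping genotypes after scaling. *Malat1*, a nuclear RNA of splicing speckles, had 226, 250, 171 and 122 TPM, and *Mhrt*, an antisense RNA of the cardiac myosin locus, had 70.03, 78.2, 55.1 and 61.5 TPM. After scaling, *Mhrt* was among the rows with both heterozygous hearts higher (log2 difference 0.10, adjusted p = 0.824 with limma). The 2 rows with the smallest p were *Rian*, of the imprinted *Dlk1*-*Dio3* region, with 12.2, 13.1, 6.64 and 6.38 TPM (log2 difference -0.46, adjusted p = 0.346), and *Oip5os1*, with 10.54, 12.7, 6.11 and 6.95 TPM (log2 difference -0.34, adjusted p = 0.405). The widest differences in the list were those of both rows of *Rmrp* (-1.96 and 1.18) and of *Rpph1* (-0.74), each with a heart listed at 0, and of *Snhg14* (0.54), which did not overlap between genotypes.

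The 573 tested genes with a Gm or Rik symbol, among which the 8 genes are counted, had a median log2 difference of 0.02 (-0.30 with TPM as deposited). Both heterozygous hearts were above both wild-type hearts in 23.7% and under them in 23.2%, nearly the same shares as in all tested genes. One of them was called by limma, *Gm8186*, a processed pseudogene listed at 0 in both heterozygous hearts. The 8 genes were spread over 5 chromosomes, with 4 on chromosome 10, which holds 4.84% of the tested genes. These 4 included both directions, *1810014B01Rik* and *Gm47644* lower and *Gm20492* and *Gm17711* higher in the heterozygous hearts.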

How the data were processed

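The authors deposited TPM per gene, rounded to 2 decimals, for 4 heart libraries. Per the labels and the methods, they trimmed reads with Trim Galore, aligned them to mm10 with STAR and quantified genes with RSEM. RSEM divides reads that fit several genes by estimation, and the annotation release and strand setting are not given in the sources used here. Their DESeq2 step needs counts, which were not used here.

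Here, TPM were divided by median-of-ratios factors (1.09, 1.26, 0.818 and 0.903), and log2 values were formed after adding a pseudocount of 1. The 10036 genes with a mean TPM of 1 or more entered a two-sided limma (3.58.1) fit in R (4.3.3) with the eBayes trend option, and p-values were adjusted by Benjamini-Hochberg over this whole set. A call required a fold change above 1.5 besides an adjusted p below 0.05. With 2 mice in each genotype, an exact permutation test of 1 gene cannot go below p = 0.333. Coordinates and transcripts came from GENCODE M21 (mm10), overlaps from bedtools (2.31.1) and alignments from BLAST+ (2.17.0). The fit was tested on simulated data.

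The members and the gene lists were chosen with earlier results of these data known. Genes are named by rule, namely the 8 genes, genes that overlap or neighbour them, near copies, the gene of most similar pattern, *Ctcf*, sex-linked genes, and the most abundant and most different RNAs of the noncoding list. Of the nearest genes, those with a Gm symbol and *Ddit3* are given with values, and the rest as a range. Alternatives were other scalings, pseudocounts, filters, robust eBayes, a block and each library left out.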

Additional observations from a re-analysis of the deposited data

How the results depend on the processing

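With TPM as deposited, limma called 2 genes higher and 11 lower (0 and 2 in the report), and 8 of the Gm and Rik class instead of 1. With mt- genes removed, 3 were called higher, 5 lower and 6 in that class. In the same order of higher, lower and class, robust eBayes gave 2, 3 and 4 and a pseudocount of 0.1 gave 0, 4 and 3. No filter gave 0, 0 and 0, and a mean TPM of at least 5 gave 0, 2 and 2. Without 1 library in turn the calls were 1 to 12 higher, 4 to 21 lower and 4 to 18 in the class. The median absolute difference of the 8 genes was 2.15 with mt- genes removed, 2.41 with a pseudocount of 0.1, 0.82 with one of 5, and 1.21 to 1.76 without 1 library. At a mean TPM of at least 5 only 3 of the 8 genes were tested, and all 3 did not overlap. Without 1 library 6 to 8 did not overlap, and without heterozygous replicate 2 *Gm20492* and *Gm17711* did not pass the filter. Each of the 8 genes kept its direction wherever it was tested, but the size of the low ones moved with the pseudocount. The 8 genes were selected for their gap in these same hearts. Their kept direction and lack of overlap are thus a description and no test. From a pseudocount of 0.1 to one of 5, *1810014B01Rik* went from -4.57 to -2.25, *Gm14325* from -3.09 to -0.70, *Gm20492* from 5.19 to 0.79, *Gm17711* from 5.32 to 0.86, *Gm17129* from 1.72 to 0.50 and *Gm43857* from 1.21 to 0.57, which was 0.64 in deposited TPM.

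The median of the noncoding list was -0.34 with TPM as deposited, -0.27 with mt- genes removed, 0.085 with quantile normalization, 0.048 with a pseudocount of 5, 0.041 at a mean TPM of at least 5 and 0.012 to 0.17 without 1 library, with 0 to 1 calls. The median of the Gm and Rik class was -0.30, -0.22, 0.00014 without a filter and -0.031 to 0.052 without 1 library. The first scalings lower the median of all genes to -0.35 and -0.29. Of the overlapping genes, *Mbd6* turned to -0.33 and -0.24, *Adcy6* to -0.30 and -0.20, and *Cep85l* to -0.13 and -0.074 under them. Without 1 library the ranges were -0.13 to 0.30 for *Mbd6*, -0.18 to 0.46 for *Adcy6* and -0.51 to 0.0059 for *Usp33*. No overlapping or neighbouring gene was called under any of these settings.

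Replicate numbers are shared between genotypes but mark different mice, and deviations of same-numbered hearts correlated at 0.101. With the replicate block, limma called 3 genes higher and 7 lower, 7 of them in the Gm and Rik class, 0 of the noncoding list and 0 of the overlapping and neighbouring genes. The cause of these changes was not tested. Depth is unknown, so the precision of low values such as 0.27 TPM cannot be given.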

Other observations

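Among the tested genes with a Gm or Rik symbol, the annotated types differed in how their genotype differences lay around the median of all genes. The 77 antisense genes had a median log2 difference of 0.16, and both heterozygous hearts were above both wild-type hearts in 24 of them and under them in 12. The 42 processed transcripts had a median of 0.16, with 16 above and 4 under, and the 31 TEC genes one of 0.14, with 10 above and 5 under. The 100 processed pseudogenes had a median of -0.17, with 12 above and 31 under, and the 81 lincRNAs one of -0.01, with 18 above and 19 under. The 15 unprocessed pseudogenes had a median of 0.33, with 7 above and 0 under. Under quantile normalization their median was 0.069, with 4 above and 0 under. With TPM as deposited, all 6 medians were negative, at -0.15, -0.16, -0.16, -0.50, -0.31 and -0.035 in the same order, beside -0.35 over all genes. The counts above and under were then 11 and 28 for the antisense genes and 4 and 13 for the processed transcripts. They were 4 and 9 for the TEC genes, and 6 and 45, 5 and 40, and 5 and 2 for the others. Over all tested genes the shares above and under were 23.7% and 23.3% after scaling, but 2.32% and 67.8% with TPM as deposited. In deposited TPM the 6 types had 6.0% to 33.3% above, each a larger share than in all tested genes. They had 13.3% to 49.4% under, each a smaller share. Of the types outside these 6, the 182 protein-coding genes had a median of -0.03 after scaling, with 38 above and 51 under. In deposited TPM 4.40% of them were above and 60.4% under. The 17 transcribed processed pseudogenes had a median of -0.03 after scaling, with 3 above and 4 under. The median level over all tested genes was 4.39 TPM. It was 16.2 TPM in the unprocessed pseudogenes and 1.87 to 2.96 TPM in the others of the 6. With mt- genes removed, the median of the processed pseudogenes differed from that of all genes by -0.02, against -0.16 in the scaling used above. *Gm29331*, *Gm20492* and *Gm43857* are counted in the first 3 of the 6 types, *Gm17129* in the processed pseudogenes and *Gm14325* in the protein-coding genes. These types were looked at after the values of the 8 genes were known, and the differences between them were not tested.

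Several tested genes were listed at 0 in all hearts but 1. Of the 6 listed at 0 in both wild-type hearts, 4 were above 0 in 1 heterozygous heart, among them *Crygn*, a crystallin gene, with 20.6 TPM in heterozygous heart 1. Of the 16 listed at 0 in both heterozygous hearts, 14 were above 0 in 1 wild-type heart, among them the small nucleolar RNA genes *Snora73a*, with 22.0 TPM in wild-type heart 2, and *Snora73b*, with 14.1 TPM in wild-type heart 1.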
